A study of Arabidopsis thaliana with 12 samples.

Results

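The comparison concerns leaves of Arabidopsis thaliana, ecotype Columbia, after 10 days of moderate drought, against well-watered leaves of the same day. Its members were chosen by sample title: 2 drought arrays and 2 control arrays of day 10, which are 4 of the 12 arrays in the series. All 21461 probe sets apart from the array's control rows entered, and every difference below is the log2 value in drought minus the log2 value in control within these 4 arrays. The series asks how early drought responses lead to acclimation of growth, and its other 8 arrays cover day 1 of the same moderate drought and the first day of wilting under progressive drought, each with its own control. Plants grew in peat pellets at 22 °C with 10 h of light a day. In the drought group watering stopped 30 days after sowing and soil moisture was kept at 30% of field capacity, while the control group stayed well watered over the same 10 days. Each array carried RNA from young leaves of 5 pooled plants, so n = 2 pools per group, and this number limits the precision of every value. The sources used here do not give the hour of harvest.

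In a drying leaf the hormone abscisic acid (ABA) closes stomata and switches on protective genes, and under a mild, held deficit leaf growth slows while the plant survives. Leaf cells expand when enzymes and proteins of the wall loosen the net of cellulose and xyloglucan, so genes of those families are markers of growth. Nitrate arriving with the water stream is reduced to ammonium and built into glutamine, and nitrogen set free inside the leaf, from proteins or purines, passes through the same glutamine step.

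On day 10 a small set of genes differed between drought and control. Limma called 23 of 21461 probe sets (0.107%) at a Benjamini-Hochberg adjusted p under 0.05, with 10 rises (0.0466%) and 13 falls (0.0606%), in the fit of all 12 arrays. The rises included the linker histone gene HIS1-3, the cytosolic glutamine synthetase gene GLN1;4 and the allantoinase gene ALN, and the falls included the nitrate reductase gene NIA2, the vacuolar nitrate exchanger gene CLC-A and 3 genes of fasciclin-like wall proteins. At an unadjusted p under 0.05 there were 2238 probe sets (10.4%), 1372 higher (6.39%) and 866 lower (4.04%). The count depended strongly on which arrays estimated the spread. A fit of the 8 moderate-drought arrays called 767 (3.57%), 403 higher (1.88%) and 364 lower (1.7%), and all 23 were among them. Replicates of the progressive sampling, which that fit leaves out, had a root mean square SD of 0.31 in control and 0.37 in drought, against 0.15 and 0.21 on day 10 and 0.12 and 0.15 on day 1. Without control replicate 2 the 767 became 78, and without drought replicate 1 they became 415. A gene is said to have risen or fallen below only where the 12 arrays called it, and a call with the 8 arrays is named as such. Unless stated otherwise, each ± is the SE of the 12-array fit, also where the adjusted p beside it is from the 8 arrays.

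The 4 arrays did not behave alike. Replicates correlated at 0.994 in control and 0.989 in drought, and 62 probe sets in control and 179 in drought lay at least 1 log2 unit apart between replicates. Drought replicate 1 held low values of the clock genes ELF4, ELF3 and TOC1, and control replicate 2 held the highest values of most jasmonate genes, as described with those groups. Transcripts of the chloroplast genome were lowest in control replicate 2 in 42 of 72 probe sets, with a median of −0.42 against control replicate 1. When either control array or drought replicate 1 was left out of the 12, limma called 0 probe sets, with 1699, 1068 and 1543 at an unadjusted p under 0.05 without control replicate 1, control replicate 2 and drought replicate 1. When drought replicate 2 was left out it called 36.

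**Figure D1:**
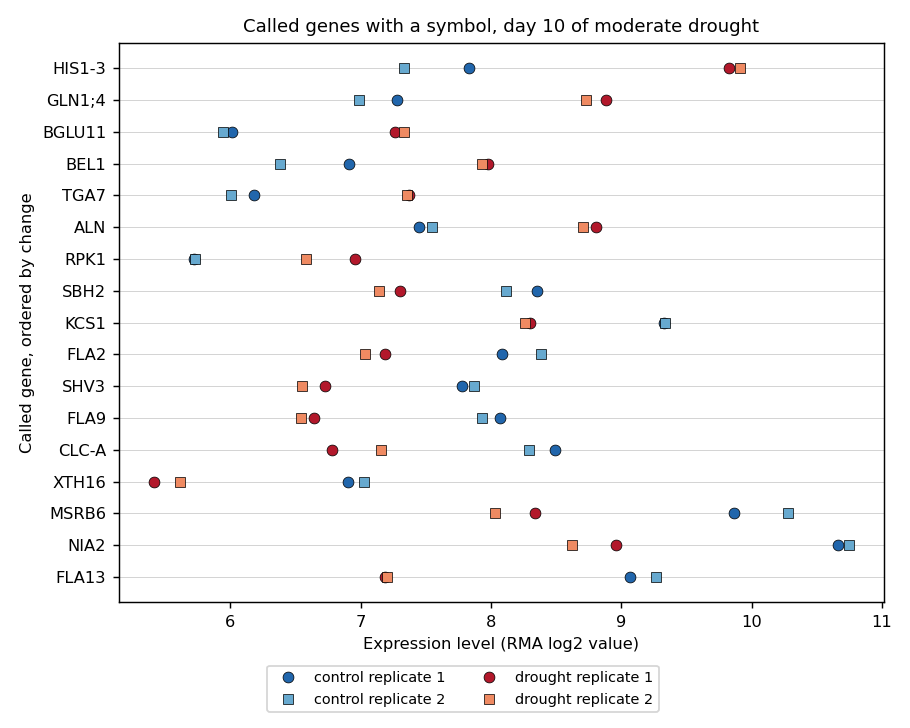
Expression level in RMA log2 values (x axis) of the 17 called genes that have a symbol, in order of change, with 1 point per array for control (blue) and drought (red) replicates 1 and 2. In every row the 2 drought points lie on the same side of the 2 control points, from HIS1-3, at 7.33 and 7.83 in control and 9.83 and 9.91 in drought, to FLA13, at 9.07 and 9.27 in control and 7.18 and 7.20 in drought.

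Genes of nitrate reduction and storage were lower in drought, while a glutamine synthetase and the allantoinase were higher. NIA2 (AT1G37130), the major nitrate reductase of leaves, had log2 values of 10.67 and 10.75 in control replicates 1 and 2 and 8.96 and 8.63 in drought replicates 1 and 2. It fell by 1.91 ± 0.20 (SE; 3.77-fold lower; adjusted p = 0.0172). CLC-A (AT5G40890), which loads nitrate into the vacuole in exchange for protons, was at 8.49 and 8.29 in control and 6.78 and 7.16 in drought. It fell by 1.43 ± 0.19 (2.69-fold lower; adjusted p = 0.0476). For both genes the 2 control arrays lay close together and more than 1 log2 unit above the higher drought array.

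The next step of the pathway, nitrite reductase (NIR1), was at 8.28 and 7.93 in control and 7.01 and 6.57 in drought. Its difference of −1.31 ± 0.31 was not called with 12 arrays (adjusted p = 0.166) and was called with 8 (0.0200). The second nitrate reductase gene, NIA1, was at −1.60 ± 0.43 (0.221 with 12 arrays and 0.0571 with 8), and its drought arrays stood 1 log2 unit and more apart, at 6.61 and 5.24. LBD38, a nitrate-induced repressor of nitrate genes, was at −0.96 ± 0.21 and UPM1, which makes the sirohaem that nitrite reductase needs, at −0.62 ± 0.20, both called with 8 arrays (0.0118 and 0.0299). The uptake transporters NRT1.1 and NRT2:1 were at 0.00 and 0.10 and the regulator NLP7 at 0.05, none of them called. Among the 20 listed genes of nitrate uptake, reduction and regulation, all measured, 2 fell and 0 rose. With the 8 arrays 5 were called lower and 0 higher, where 1.7% and 1.88% of all probe sets were called, and 2 of the 5 calls were made without control replicate 2. Drought and control arrays did not overlap for 12 lower and 1 higher gene, against 18.9% and 25.7% of all probe sets. The list's median was −0.39, against 0.02 for all probe sets.

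GLN1;4 (AT5G16570) joins ammonium to glutamate in the cytosol. Its values were 7.28 and 6.99 in control and 8.88 and 8.73 in drought, and it rose by 1.67 ± 0.15 (3.19-fold; adjusted p = 0.0082). The drought arrays agreed within 0.2 log2 units and both stood well above the controls. GSR 1 (AT5G37600), another cytosolic glutamine synthetase gene, was at 9.35 and 9.29 in control and 11.04 and 10.21 in drought. That difference of 1.3 ± 0.30 was called with 8 arrays (0.0287) and not with 12 (0.158). The plastid form GS2, which takes up ammonium from nitrate reduction and photorespiration, was at −0.36 ± 0.25, called by neither fit.

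Further genes of ammonium assimilation were mixed. The asparagine synthetase gene ASN2 was at −0.75 ± 0.27 and the glutamate dehydrogenase gene GDH2 at −1.03 ± 0.21, both called with 8 arrays (0.0178 and 0.0273). Its sister gene GDH1 was at 0.69 ± 0.38, not called by either fit. ASN1, the dark-induced asparagine synthetase, was at −1.36 ± 0.72, with 9.40 and 8.47 in control and 8.06 and 7.09 in drought, and each pair of replicates was almost 1 log2 unit apart. Over the 14 members 1 rose and 0 fell with 12 arrays. With 8 arrays 2 were called higher and 2 lower (1.88% and 1.7% of all probe sets). The median was −0.02.

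Purine breakdown releases the nitrogen of nucleotides through allantoin. ALN (AT4G04955), the enzyme that opens the allantoin ring, had values of 7.45 and 7.55 in control and 8.81 and 8.71 in drought and rose by 1.26 ± 0.17 (2.40-fold; adjusted p = 0.0429). UPS2, a transporter of ureides and nucleobases, was at 7.99 and 7.78 in control and 8.76 and 8.57 in drought, a difference of 0.79 ± 0.27 (0.327 with 12 arrays, 0.0129 with 8). The later enzymes AAH (0.48 ± 0.33), UAH (0.53 ± 0.16) and urease, URE (0.44 ± 0.16), lay above 0 and were called by neither fit, and TTL and UGLYAH stood at −0.04 and 0.00. Of the 9 measured genes of 13 listed, 1 rose and 0 fell, and 2 were called higher with 8 arrays (1.88% of all probe sets). The median was 0.45, and arrays did not overlap for 6 higher genes and 1 lower gene, against 25.7% and 18.9% of all probe sets.

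**Figure D2:**
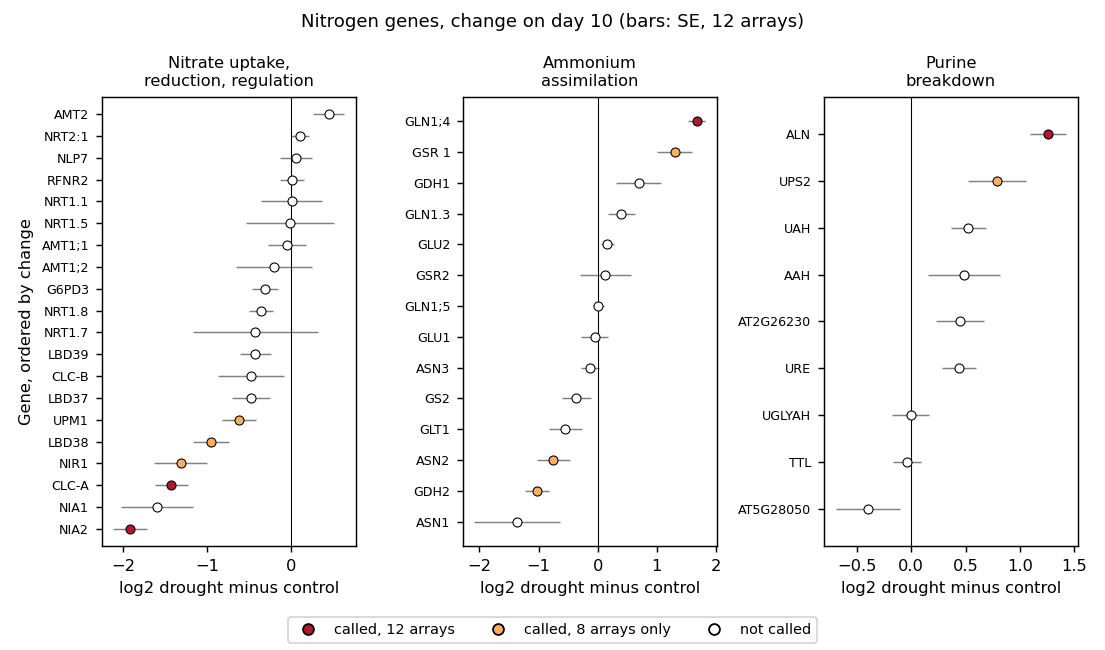
Change on day 10 (x axis, log2 drought minus control, with the SE of the 12-array fit as bars) of each measured gene of the lists for nitrate, ammonium assimilation and purine breakdown. Filled red points were called with 12 arrays, orange points with the 8 moderate-drought arrays only and open points by neither; NIA2 at −1.91 and CLC-A at −1.43 lie lowest among the calls of the left panel, and GLN1;4 at 1.67 and ALN at 1.26 head the others.

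HIS1-3 (AT2G18050), a linker histone variant known to be induced by drought and ABA, had values of 7.83 and 7.33 in control and 9.83 and 9.91 in drought. It rose by 2.29 ± 0.21 (4.88-fold; adjusted p = 0.0082), the largest called rise. The other 2 measured linker histone loci, which have no symbol in the table used, were at 0.48 and 0.35 and were not called by either fit.

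The other called rises with a symbol were 3 regulators and a glycosidase. TGA7 (AT1G77920), a bZIP factor of the family that works with the salicylate receptors, was at 6.19 and 6.01 in control and 7.37 and 7.36 in drought. It rose by 1.27 ± 0.16 (adjusted p = 0.0396), and among its 9 measured relatives TGA3, at 0.67 ± 0.29, was called with 8 arrays (0.0254), while TGA4 was at 0.69 ± 0.20 (0.0516). BEL1 (AT5G41410), a homeodomain factor known from ovule development, was at 6.91 and 6.38 in control and 7.98 and 7.93 in drought and rose by 1.31 ± 0.18 (adjusted p = 0.0462). It was the 1 called gene of 13 BELL genes with either fit. RPK1 (AT1G69270), a receptor kinase of ABA signalling, was at 5.72 and 5.73 in control and 6.95 and 6.58 in drought and rose by 1.04 ± 0.14 (adjusted p = 0.0498), close to the threshold. BGLU11 (AT1G02850), a beta-glucosidase, was at 6.02 and 5.94 in control and 7.27 and 7.34 in drought, a rise of 1.32 ± 0.12 (adjusted p = 0.0082). Of the 3 called rises without a symbol, AT2G17710 rose by 1.47 and AT5G61520 by 1.32.

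Among the called falls were 3 genes of fasciclin-like arabinogalactan proteins (FLAs), surface proteins anchored at the membrane and tied to wall assembly. FLA13 (AT5G44130) was at 9.07 and 9.27 in control and 7.18 and 7.20 in drought and fell by 1.98 ± 0.17 (3.94-fold lower; adjusted p = 0.0082). FLA9 (AT1G03870) was at 8.07 and 7.93 in control and 6.64 and 6.54 in drought and fell by 1.41 ± 0.16 (adjusted p = 0.0227). FLA2 (AT4G12730) was at 8.09 and 8.39 in control and 7.19 and 7.04 in drought and fell by 1.13 ± 0.13 (adjusted p = 0.0350). In each of the 3 genes both drought arrays lay about 1 log2 unit or more below both controls. FLA18 (−0.80 ± 0.22) and FLA8 (−0.58 ± 0.18) were called lower with 8 arrays (0.0207 and 0.0269). Among the 18 measured of 21 FLA genes, 3 fell and 0 rose, and the median was −0.14. Drought arrays were lower without overlap for 10 and higher for 1, FLA16, against 18.9% and 25.7% of all probe sets. Levels of 8 of the 18 lay below the array median, and the 5 genes called by either fit were not among those 8.

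Xyloglucan endotransglucosylase/hydrolases (XTHs) cut and rejoin xyloglucan. XTH16 (AT3G23730), at 6.90 and 7.03 in control and 5.41 and 5.61 in drought, fell by 1.45 ± 0.14 (2.73-fold lower; adjusted p = 0.0126). TCH4, a touch-induced XTH, had a larger difference of −2.99 ± 0.56, at 9.30 and 9.81 in control and 6.50 and 6.62 in drought, and was called with 8 arrays (0.00194) but not with 12 (0.117). XTH25 (−2.19 ± 0.88), XTH4 (−1.02 ± 0.17), XTH8 (−0.68 ± 0.15) and EXGT-A3, or XTH27 (−0.65 ± 0.29), were also called with 8 arrays, at 0.00413, 0.0116, 0.0105 and 0.0361. Of the 33 genes, all measured, 1 fell with 12 arrays and 6 were called lower with 8, 3 of them also without control replicate 2. No XTH was called higher. Over all probe sets the 8 arrays called 1.7% lower and 1.88% higher. Of the 33 XTH genes 19 lay below the array median, and the list's median was −0.08.

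Expansins loosen walls without cutting them, and their list of 17 also holds the expansin-like genes EXLA1, EXLA2 and EXLA3. With the 8 arrays the 2 lower calls were expansin-like genes and the 2 higher calls were expansins (1.7% and 1.88% of all probe sets). EXLA1 was at 8.55 and 9.09 in control and 5.83 and 5.93 in drought (−2.94 ± 0.56; 0.117 with 12 arrays, 0.00194 with 8) and EXLA2 at −1.28 ± 0.30 (0.00952 with 8). EXPA8, at 6.63 and 6.35 in control and 8.04 and 7.58 in drought, was higher by 1.32 ± 0.43 and EXPB3 by 0.93 ± 0.23, both called with 8 arrays (0.0103 and 0.00816). None of the 17 was called with 12 arrays, and the median was 0.10. Without control replicate 2, 1 lower and 0 higher expansin calls were made with the moderate-drought arrays.

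Genes that build the primary wall included 1 called fall. SHV3 (AT4G26690), a membrane-anchored protein needed for wall organisation, was at 7.78 and 7.87 in control and 6.73 and 6.55 in drought and fell by 1.18 ± 0.15 (adjusted p = 0.0427). With 8 arrays the xyloglucan synthesis genes CSLC04 (−0.86 ± 0.17; 0.0103) and XT1 (−1.07 ± 0.48; 0.0110) and the pectin precursor gene GAE1 (−0.76 ± 0.23; 0.0374) were called lower as well. In all, 16 of 24 had lower, non-overlapping drought arrays (18.9% of all probe sets) and 2 had higher ones (25.7%), and the median was −0.23.

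**Figure D3:**
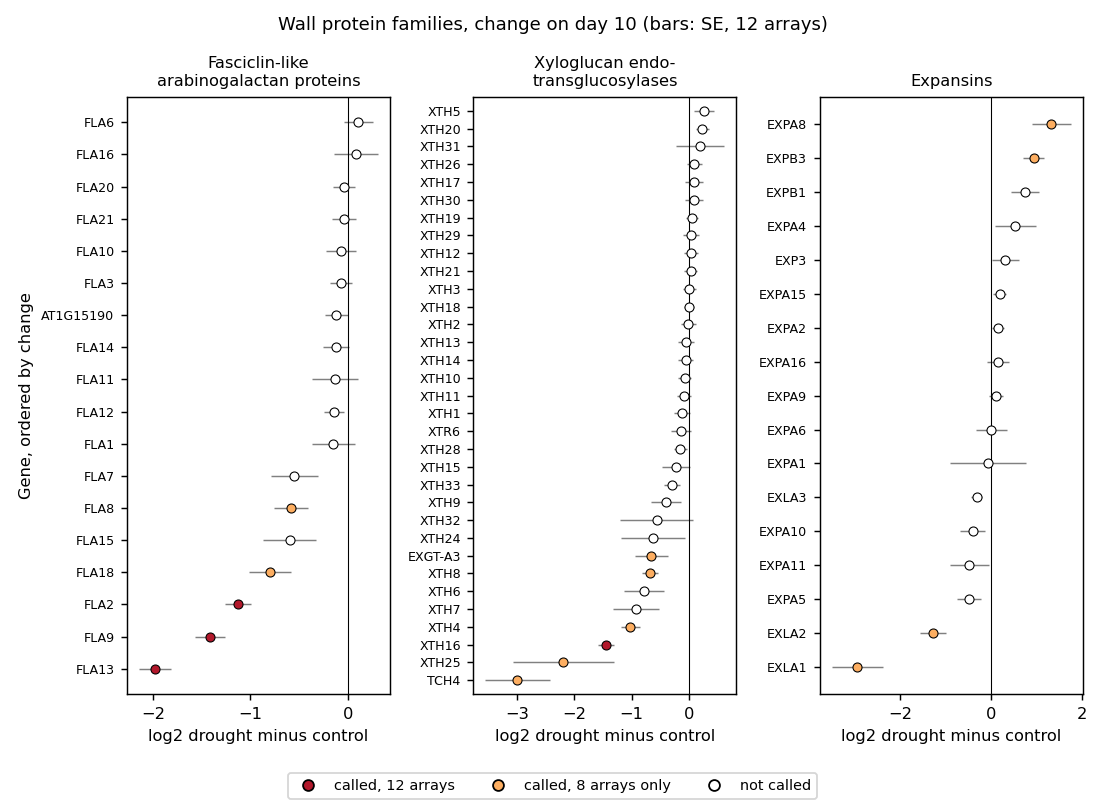
Change on day 10 (x axis, log2 drought minus control, with the SE of the 12-array fit as bars) of each measured FLA, XTH and expansin gene, coloured by call as in the nitrogen plot. FLA13 at −1.98 and XTH16 at −1.45 were called with 12 arrays, while TCH4 at −2.99 and EXLA1 at −2.94 were called with the 8 arrays only, and EXPA8 and EXPB3 are the 2 coloured points on the right of 0.

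The remaining called falls with a symbol act in lipids and in protein repair. KCS1 (AT1G01120), which lengthens fatty acids for waxes, was at 9.33 in both controls and 8.30 and 8.26 in drought and fell by 1.05 ± 0.13 (adjusted p = 0.0350). CER3, an enzyme of wax alkane synthesis, was at 8.57 and 8.62 in control and 7.78 and 7.77 in drought, −0.82 ± 0.18, called with 8 arrays (0.0206). The other 11 wax and cuticle genes were called by neither fit. SBH2 (AT1G14290), which hydroxylates the long-chain base of sphingolipids, was at 8.35 and 8.12 in control and 7.30 and 7.14 in drought and fell by 1.01 ± 0.12 (adjusted p = 0.0383). FAH1, which hydroxylates their fatty acids, was at −0.88 ± 0.18 (0.00816 with 8 arrays), and none of the other 7 sphingolipid genes was called. MSRB6 (AT4G04840), which repairs oxidised methionine, was at 9.87 and 10.28 in control and 8.34 and 8.03 in drought and fell by 1.89 ± 0.24 (3.71-fold lower; adjusted p = 0.0396). Its 6 measured relatives lay between −0.49 and 0.14 and were not called. Of the 3 called falls without a symbol, AT5G19120 fell by 2.42 and AT5G03120 by 1.65.

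ABA and dehydration genes were mostly not called on day 10. RPK1 was the 1 of 24 measured members that rose. With 8 arrays 4 were called higher and 1 lower (1.88% and 1.7% of all probe sets). The homeobox genes HB-7 (1.24 ± 0.25), which had 6.38 and 5.99 in control and 7.61 and 7.23 in drought, and HB-12 (0.94 ± 0.31) and the transcription factor gene ABF4 (0.68 ± 0.38) were the others higher (0.0217, 0.0460 and 0.0183 with 8 arrays). RD26, a NAC factor of the ABA response, went the other way, with 9.69 and 10.22 in control and 8.75 and 8.38 in drought (−1.39 ± 0.79; 0.628 with 12 arrays and 0.0278 with 8). Galactinol synthase GolS2, which makes a protective sugar precursor, was at 7.77 and 7.96 in control and 9.93 and 8.94 in drought, 1.57 ± 0.59, called by neither fit. LTP4, a lipid transfer protein gene, was at 5.69 and 4.94 in control and 6.17 and 5.12 in drought, so its arrays overlapped. The list's median was 0.11, beside 0.96 on day 1 and 3.64 in progressive drought, and these 3 values are set side by side with no test. The day 10 median was −0.13 without drought replicate 1 and 0.31 without drought replicate 2, so its sign depended on 1 array.

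Among the 9 clade A PP2C phosphatases, which restrain ABA signalling, HAI2 was at 5.56 and 5.00 in control and 7.22 and 6.73 in drought. Its difference of 1.7 ± 0.26 just missed the threshold with 12 arrays (adjusted p = 0.0604) and passed with 8 (0.0126). The other 8 lay between −0.02 and 0.46 and were called by neither fit. Of the 10 ABA receptors, RCAR1 was at 0.57 ± 0.29 (0.0277 with 8 arrays) and PYL4 at −0.69 ± 0.24 (0.340 with 12 arrays, 0.124 with 8). None of the 16 genes of ABA synthesis and breakdown was called by either fit, and NCED3, the rate-limiting step, was at 0.33 ± 0.30.

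Of the genes known for promoting leaf senescence, 3 NAC factor genes were higher in drought without a call from the 12 arrays. NAC6, also called ORE1, was at 4.33 and 4.26 in control and 7.32 and 5.94 in drought (2.34 ± 0.39; 0.0826 with 12 arrays, 0.0207 with 8). NAC3 (AT3G29035), also called ORS1, was at 6.55 and 6.25 in control and 8.37 and 7.52 in drought (1.54 ± 0.23; 0.0604 and 0.0158). NAP was at 7.53 and 6.62 in control and 10.06 and 8.88 in drought (2.39 ± 0.61; 0.195 and 0.0183). In all 3 genes drought replicate 1 was the highest array, and control and drought did not overlap. DIN10, a sugar-starvation gene, was lower, at 10.07 and 9.54 in control and 8.63 and 8.02 in drought (−1.48 ± 0.28; 0.117 and 0.0314). The WRKY6 and WRKY75 factor genes of the same list were at 0.12 and 0.08 and were called by neither fit. The list of 20 had a median of 0.06 and 0 calls with 12 arrays. With 8 arrays 3 were called higher and 1 lower (1.88% and 1.7% of all probe sets).

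Processes that follow in an ageing leaf showed smaller differences. NYE1, which removes magnesium from chlorophyll, was at 6.73 and 6.46 in control and 7.44 and 7.16 in drought (0.71 ± 0.38; 0.590 with 12 arrays, 0.0372 with 8), and all 6 measured chlorophyll breakdown genes lay above 0, with a median of 0.32. ATG8B, a ubiquitin-like protein of autophagosomes, was at 6.54 and 6.60 in control and 7.23 in both drought arrays (0.66 ± 0.16; 0.176 and 0.0113). Of the 13 autophagy genes 12 lay above 0, with a median of 0.25. Non-overlapping drought arrays were higher for 7 (25.7% of all probe sets) and lower for 0 (18.9%). With 8 arrays 1 was called higher and 0 lower (1.88% and 1.7% of all probe sets). GAMMA-VPE, a processing protease of the vacuole, was at 11.14 and 11.28 in control and 12.44 and 12.37 in drought (1.19 ± 0.19; 0.0711 and 0.0036).

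Jasmonate genes held large differences on day 10 together with wide errors. Jasmonate is a wound and defence hormone whose active form makes the receptor COI1 destroy JAZ repressors, and active signalling raises the JAZ genes and the hormone's own synthesis and breakdown genes. JAZ7 was at 9.20 and 10.30 in control and 4.52 and 7.13 in drought, a difference of −3.92 ± 1.8 with 12 arrays and ± 0.74 with 8 (adjusted p = 0.503 and 0.0283). JAZ10 was at 8.98 and 9.63 in control and 5.84 and 6.58 in drought (−3.09 ± 1.40; 0.495 and 0.0280). In both genes control replicate 2 was highest and drought replicate 1 lowest, and the groups did not overlap. With 8 arrays 7 of the 11 measured JAZ genes were called lower, where 1.7% of all probe sets were. Besides JAZ7 and JAZ10 these were JAZ8, JAZ3, JAZ1, TIFY7 (JAZ9) and TIFY10B (JAZ2). JAZ4 and JAZ12, at −0.01 and −0.24, were nearest 0. No JAZ gene was called with 12 arrays, and 2 were called lower with the moderate-drought arrays without drought replicate 1 and 0 without control replicate 2.

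Synthesis genes lay on the same side. The lipoxygenase gene LOX4 was at 9.77 and 10.72 in control and 6.04 and 8.21 in drought (−3.12 ± 1.44; 0.505 with 12 arrays, 0.0439 with 8), and OPCL1, which activates a precursor for shortening, was at −1.39 ± 0.96 (0.0362 with 8). AOC3 and the reductase OPR3 were at −1.65 ± 0.68 and −1.78 ± 1.31 and were called by neither fit. JAR1, which makes the active conjugate, was at 9.56 and 9.80 in control and 8.57 and 8.87 in drought (−0.97 ± 0.38; 0.115 with 8). Of 12 measured synthesis genes 10 had lower, non-overlapping drought arrays (18.9% of all probe sets) and 0 higher ones (25.7%), with a median of −0.91.

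The breakdown genes lay on that side too. CYP94C1, which oxidises the active hormone, was at 8.44 and 9.30 in control and 5.89 and 6.31 in drought (−2.77 ± 1.45; 0.584 with 12 arrays and 0.00489 with 8). It was called with the moderate-drought arrays whichever array of day 10 was left out. CYP94B1 (−2.74 ± 1.06) and CYP94B3 (−2.17 ± 1.11) were called by neither fit. The output gene TAT3, a tyrosine aminotransferase, was at 7.25 and 8.29 in control and 5.21 and 4.53 in drought (−2.89 ± 1.04; 0.354 and 0.0572), and the factor gene MYC2 was at −1.52 ± 1.25 and the receptor gene COI1 at 0.60 ± 0.25.

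Over the 35 measured genes of synthesis, breakdown, JAZ repressors and outputs, 27 were highest in control replicate 2 and 23 were lowest in drought replicate 1. The median difference was −1.39. It was −1.06 without control replicate 2, −1.67 without control replicate 1, −1.23 without drought replicate 1 and −1.64 without drought replicate 2. Arrays of the groups did not overlap for 28 lower genes and 1 higher gene, against 18.9% and 25.7% of all probe sets. Rapidly wound- and touch-induced genes went both ways. TCH2, a calmodulin-like gene, was at 7.24 and 8.10 in control and 5.73 and 6.29 in drought (−1.66 ± 0.46; 0.233 and 0.0184). WRKY33, a defence factor gene, was at 5.83 and 5.96 in control and 7.75 and 6.61 in drought (1.28 ± 0.55; 0.469 and 0.0647), highest in drought replicate 1. Of the 23 such genes 9 had lower and 7 higher, non-overlapping drought arrays (18.9% and 25.7% of all probe sets). With 8 arrays 5 were called lower and 0 higher; the lower calls were 2 without drought replicate 1 and 1 without control replicate 2. Over all probe sets the 8 arrays called 1.7% lower and 1.88% higher. The part of the wound- and touch-induced genes in the jasmonate difference was not tested.

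**Figure D4:**
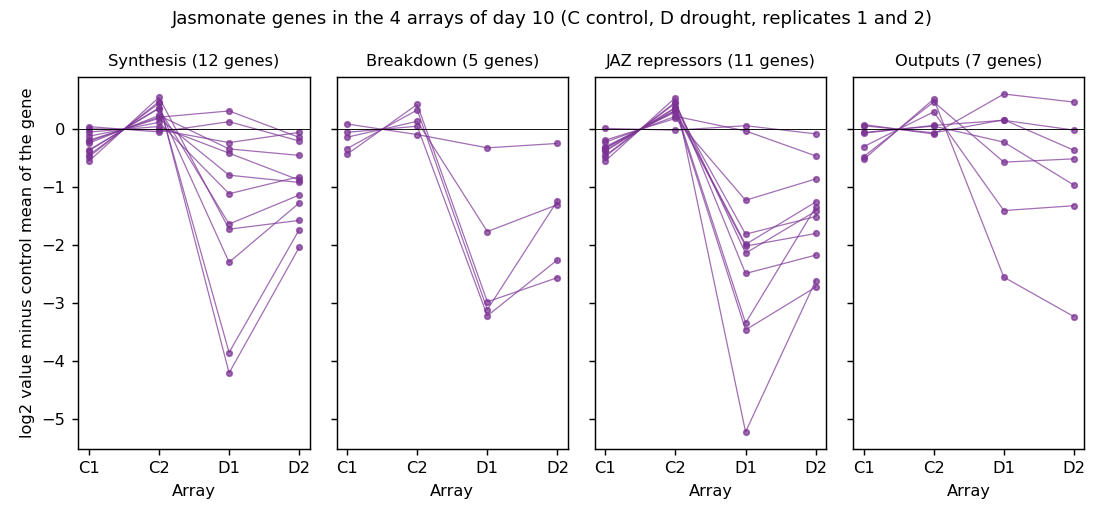
Log2 value of each measured jasmonate gene minus its own control mean (y axis) in control replicates 1 and 2 (C1, C2) and drought replicates 1 and 2 (D1, D2), in 4 groups. Each line joins 1 gene's values; most genes are higher in C2 than in C1, and the largest drops, such as that of JAZ7 to 4.52 in D1, are followed by a higher value in D2, here 7.13.

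Salicylate and defence genes gave no call with 12 arrays. PR5, a pathogenesis-related protein gene, was at 6.92 and 7.34 in control and 5.75 and 4.78 in drought (−1.86 ± 0.27; 0.0604 with 12 arrays and 0.0151 with 8). BGL2, also known as PR2, was at 7.17 and 8.67 in control and 6.15 and 5.80 in drought (−1.95 ± 0.50; 0.196 and 0.0343). CBP60G, a regulator of salicylate synthesis, went the other way, at 5.80 and 5.67 in control and 7.27 and 6.50 in drought (1.15 ± 0.24; 0.129 and 0.0351). With 8 arrays 2 of 21 genes were called lower and 1 higher (1.7% and 1.88% of all probe sets), and the median was −0.21.

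Within the glucosinolates, sulphur-rich defence compounds, the indole branch regulators MYB34 and MYB51 were called in opposite directions with 8 arrays only. MYB122, also on the indole list, was at −0.10 and was called by neither fit. MYB34 was at 8.29 and 8.97 in control and 6.09 and 7.15 in drought (−2.01 ± 0.60; 0.0364 with 8 arrays), whereas MYB51 was at 5.39 and 5.63 in control and 6.67 and 6.24 in drought (0.94 ± 0.26; 0.0259). ESM1, which steers the breakdown products, was at 11.83 and 11.81 in control and 12.47 and 12.48 in drought (0.65 ± 0.15; 0.0129). The sulphotransferase gene SOT16 was at −1.16 ± 0.41 (0.0257). The list of 13 holds indole genes together with SUR1, GGP1 and UGT74B1, shared by both branches, and the breakdown genes ESM1 and ESP. With 8 arrays 2 of the 13 were called higher, MYB51 and ESM1, and 3 lower, MYB34, SOT16 and UGT74B1 (1.88% and 1.7% of all probe sets). Of 14 aliphatic genes MYB28, the main regulator, was the 1 called higher, at 0.58 ± 0.21 (0.0289). FMO GS-OX1 was the 1 called lower, at −0.80 ± 0.60 with 12 arrays and ± 0.16 with 8 (adjusted p = 0.754 and 0.0357). No gene of either list was called with 12 arrays.

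Few photosynthesis and division genes were called. Of 18 Calvin cycle genes 11 had lower and 1 higher, non-overlapping drought arrays (18.9% and 25.7% of all probe sets), the median was −0.23 and 0 were called by either fit, and 16 of 18 lay below 0. Median differences without drought replicate 1 and without drought replicate 2 were −0.10 and −0.35. The 24 measured light-harvesting and photosystem genes had a median of −0.02 and 0 calls by either fit. CA1, the chloroplast carbonic anhydrase gene on the list of mesophyll markers, was at 12.14 and 12.16 in control and 11.22 and 11.26 in drought (−0.91; 0.00549 with 8 arrays). PCNA1, the sliding clamp of DNA replication, was at 6.97 and 7.20 in control and 6.33 and 6.47 in drought (−0.68 ± 0.11; 0.0774 with 12 arrays and 0.0186 with 8). With 8 arrays it was the 1 called gene of 18 in the division list, where 1.7% of all probe sets were called lower. Of these 18 genes 15 lay below 0, with a median of −0.19. Non-overlapping drought arrays were lower for 11 and higher for 1 (18.9% and 25.7% of all probe sets). Levels of 11 of the 18 lay below the array median.

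Water channels, antioxidants and iron storage were called with the 8 arrays only. Those arrays called 1.7% of all probe sets lower and 1.88% higher. Of 8 tonoplast channels they called 2 lower and 0 higher. Of 11 listed genes of superoxide and peroxide removal they called 2 lower and 1 higher. The tonoplast channels DELTA-TIP, at 10.94 and 10.64 in control and 9.82 and 9.49 in drought (−1.14 ± 0.51; 0.0129 with 8 arrays), and GAMMA-TIP (−0.90 ± 0.44; 0.0268) were lower, and 0 of 9 plasma membrane channels were called. CSD2, the chloroplast copper/zinc superoxide dismutase, was at 11.53 and 11.36 in control and 9.82 and 10.64 in drought (−1.22 ± 0.32; 0.0310), its copper chaperone CCS at −0.97 ± 0.29 (0.0155) and the iron superoxide dismutase FSD1 at 1.29 ± 0.39 (0.0208). Ferritin, FER1, was at 9.51 and 9.83 in control and 10.95 and 10.90 in drought (1.26 ± 0.38; 0.00840). Of the 10 measured iron genes 4 lay above 0 and 6 below, with a median of −0.10, and 1 was called with 8 arrays. The growth-linked genes GASA1, a gibberellin-regulated peptide gene (−1.89 ± 0.48; 0.00194), and EXO, a brassinosteroid-regulated gene (−2.77 ± 0.69; 0.0224), were lower. EXO was at 9.24 and 10.0 in control and 6.0 and 7.74 in drought. Of 15 gibberellin genes 9 lay above 0 and 6 below, with a median of 0.11. Of 7 measured brassinosteroid and growth genes 3 lay above 0 and 4 below, with a median of −0.06. Each of these lists had 1 lower and 0 higher calls with 8 arrays. FLC, the repressor of flowering, was at 6.64 and 6.51 in control and 7.43 and 7.50 in drought (0.89 ± 0.19; 0.129 with 12 arrays and 0.00809 with 8).

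A few clock and flavonoid genes differed widely between the 2 drought arrays. ELF4, an evening gene of the clock, was at 7.60 and 7.57 in control and 5.78 and 8.0 in drought, and TOC1 was at 8.27 and 8.51 in control and 7.11 and 8.42 in drought. Among all probe sets with a symbol the widest gap between drought replicates was that of COR27, a clock-regulated cold gene, at 6.97 and 7.65 in control and 3.84 and 7.63 in drought, followed by JMJD5, at 7.91 and 8.04 in control and 5.31 and 8.52 in drought. Both were chosen after their values were seen. No clock gene of 15 was called by either fit, the groups did not overlap for 6 higher genes and 1 lower gene (25.7% and 18.9% of all probe sets), and the morning genes CCA1 and LHY lay within 0.3 log2 units between drought replicates. In the flavonoid list the anthocyanin genes DFR, at 7.38 and 7.0 in control and 8.20 and 9.56 in drought, and UF3GT, at 7.27 and 6.82 in control and 7.37 and 9.42 in drought, were highest in drought replicate 2. Of 17 flavonoid genes 0 were called by either fit. Their median was 0.07, and it was 0.42 without drought replicate 1 and −0.37 without drought replicate 2. Whether these genes bear on other differences was not tested.

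Levels of the mesophyll and seed markers fitted the leaf label. The mesophyll markers RCA, CA1, GAPB and PRK lay between 11.2 and 13.4 in every array. All 4 seed markers lay below the array median, as did 8 of 10 of shoot apex and flower and 2 of 3 of root. Markers of cell types found in leaves were often dim as well. Below the array median lay all 7 of the stomatal lineage, all 4 of trichomes, 5 of 7 of guard cells and 6 of 7 of xylem, but 0 of 4 of phloem. No marker gene was called with 12 arrays. With 8 arrays the guard cell channel gene KAT1 (−0.55; 0.0264), the xylem protease gene XCP2 (−0.55; 0.0403) and CA1 were called lower and 0 marker genes higher. Those 8 arrays called 1.7% of all probe sets lower and 1.88% higher. KAT1 was the 1 of 7 guard cell markers below 0, while 6 lay above 0, and the median was 0.12. All 7 xylem markers lay below 0, with a median of −0.10, as did all 4 measured mesophyll markers, with a median of −0.32. In bulk leaf RNA, fewer cells of a type and less RNA per cell cannot be told apart.

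The drought change on day 10 was compared with that on day 1 of the same treatment in the 12-array fit. Limma called 0 probe sets for this difference, with 1472 at an unadjusted p under 0.05 (6.86%), and the 8 arrays called 12 (0.0559%), array weights 7. GLN1;4 had the smallest p with 12 arrays among named genes: it was at −0.34 ± 0.15 on day 1 and 1.67 ± 0.15 on day 10, a difference of 2.01 ± 0.21 (adjusted p = 0.0923 with 12 arrays and 0.0305 with 8). LTP4 was at 4.51 ± 0.36 on day 1 and 0.33 on day 10, a difference of −4.18 ± 0.50 (0.0923 and 0.0451). TCH4 went from 0.53 on day 1 to −2.99 on day 10 (0.559 and 0.0305) and CPUORF47 from 1.95 to 0.73 (0.148 and 0.0451). Without control replicate 2 the 8-array count of 12 became 0, and without drought replicate 2 it became 511.

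Of the 23 probe sets called on day 10, 20 had the same sign on day 1, namely 13 of 13 falls and 7 of 10 rises. All 23 had a smaller change on day 1. They were picked by their change on day 10, which favoured a smaller change on day 1 in advance. The direct comparison of day 10 with day 1 called 0 probe sets with 12 arrays. The share of all probe sets with the same sign was not counted. In progressive drought, which has its own controls and may have been normalised apart, 20 of 23 had the same sign and 12 had a larger change. HIS1-3 was at 1.59 on day 1, 2.29 on day 10 and 5.00 in progressive drought. FLA9 was at −1.22, −1.41 and −3.62 in that order and NIA2 at −0.48, −1.91 and −2.49. ALN was at 0.03, 1.26 and −1.21, GLN1;4 at −0.34, 1.67 and −0.43 and CLC-A at −0.35, −1.43 and 0.08. Values of progressive drought are given beside the others with no test of a difference.

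**Figure D5:**
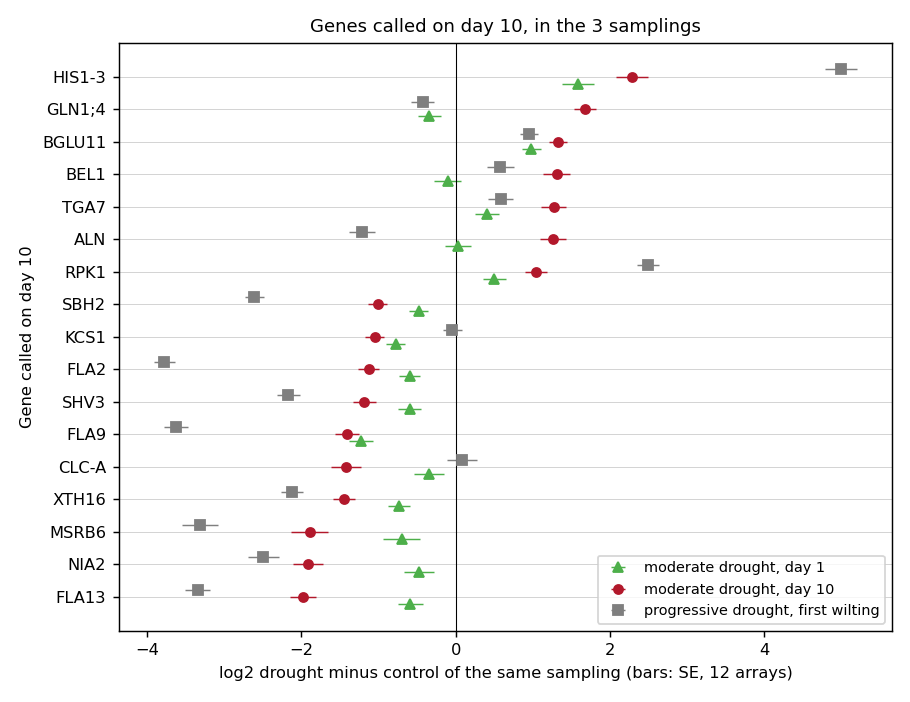
Change of the 17 genes with a symbol that were called on day 10 (x axis, log2 drought minus the control of the same sampling, with the SE of the 12-array fit) on day 1 and day 10 of moderate drought and at first wilting in progressive drought. HIS1-3 and RPK1 were highest in progressive drought, at 5.00 and 2.49, whereas GLN1;4 and ALN lie above 0 on day 10 and below 0 in progressive drought, and the 3 FLA genes lie lowest in progressive drought.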

How the data were processed

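RNA of young leaves was measured on Affymetrix ATH1 arrays. The deposited values are log2 expression values that the authors made with RMA from the affy package, per the submitters' processing notes; the sources used here do not give their versions or the build behind the probe sets, which carry locus codes. The sorted values agree within each set of 4 arrays and not across the 12, so only differences within a set were used. The 56 control rows were left out. Symbols came from a RefSeq table, which gave one to 8982 probe sets; no coordinates or sequences were used.

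Drought minus control was estimated by limma (version 3.58.1, R version 4.3.3; eBayes without trend or robust options) with a mean for each of 6 groups over all 12 arrays, which left 6 degrees of freedom beside 2.78 from the prior. The two-sided p-values were Benjamini-Hochberg adjusted over 21461 probe sets and called at an adjusted p under 0.05. Errors are standard errors of that fit. Fits of the 8 moderate-drought arrays, of 4 arrays, with array weights, trend and robust, cyclic loess, centring, a filter on dim probe sets, without each array and with a replicate block were alternatives. The 8-array fit without each array, with the block and with cyclic loess was added after seeing the data. The script was tested on simulated data.

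Members and the 52 gene lists (699 entries, 641 measured) were chosen with earlier results of these data known. Named genes were every called probe set with a symbol, the 15 highest and 15 lowest moderated t among the rest, up to 5 members per list with the smallest p, and members of the nitrate, ammonium, purine, linker histone, FLA, XTH, JAZ, jasmonate synthesis, PP2C and dehydration lists. Other genes named as examples were chosen after their values were seen. Python 3.11.15 with matplotlib 3.10.9 drew the figures.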

Additional observations from a re-analysis of the deposited data

How the results depend on the processing

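The 23 calls on day 10 depended on how the spread was estimated. The count was 0 with the 4 arrays of day 10 alone (3038 at an unadjusted p under 0.05), 767 with the 8 moderate-drought arrays, 158 with array weights, 49 with trend and robust, 15 with cyclic loess, 20 with arrays centred and 35 once dim probe sets were filtered out. The 4 fits of 11 arrays gave 0 to 36 calls. All 23 were called with the 8 arrays, with array weights and with trend and robust, 15 with cyclic loess, 20 after centring, 7 without drought replicate 2 and 0 with 4 arrays alone. Fits of 11 arrays assume that the lone array of a group varies like the others, as do the 8-array fits without 1 array, which gave 615 and 78 without control replicates 1 and 2 and 415 and 1940 without drought replicates 1 and 2. With cyclic loess the 8 arrays gave 739. Of the 767 calls, 66 were made in all 4 of those fits. The sample titles do not say whether replicate numbers pair a drought array with a control array, and the main fit did not pair them. Across probe sets the replicate differences of drought and control correlated at 0.06 on day 10, 0.03 on day 1 and −0.49 in progressive drought. These correlations cannot show whether arrays were handled in pairs. A replicate block gave 0 calls with 12 arrays (1795 at an unadjusted p under 0.05) and 667 with 8. For the difference between day 10 and day 1, where the 12 arrays called 0, the count was 12 with 8 arrays, 7 with array weights, 0 to 1 in the fits of 11 arrays, 120, 0, 53 and 511 in the 8-array fits without those arrays in the same order, 39 with 8 arrays and the replicate block and 14 with 8 arrays and cyclic loess. None of the 23 called and 30 next genes changed sign in an alternative. Of 621 list medians under alternatives 24 moved by more than the spread between replicates. Arrays give no count of molecules, so whether values below the array median exceed background was not tested.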
